A study of Mus musculus with 40 samples.

Results

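This is an account of 10 arrays of whole mouse lung out of the 40 in the series. They were chosen by title: 5 arrays of AJ lung taken 6 h after aspiration of an allergen in phosphate-buffered saline, and 5 arrays of AJ lung taken 6 h after aspiration of the saline alone (PBS). The labels call AJ the hyperresponsive strain. The titles abbreviate the allergen as OVA and the descriptions as HDM, so it is called the allergen. The other 30 arrays cover the C3H strain and the 24 h time in groups of 5, and those with C3H titles carry descriptions that also name AJ, so strain was read from the titles. Age, sex, dose and any earlier sensitisation were not given in the sources used here. Arrays of a group are numbered in the labels, and a letter follows the number. In both AJ groups at 6 h it is a, except for allergen replicate 5, where it is b. The labels do not explain the letter, and they do not say whether a number stands for a mouse of its own. The p-values rest on the spread of arrays within their groups, pooled over all 40 arrays of the series. Some of that spread may therefore be technical.

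An inhaled allergen is met in the airway by epithelium and macrophages, whose pattern receptors act through NF-kB. This transcription factor is held in the cytoplasm by IkB inhibitors, and the genes it switches on include chemokines that draw neutrophils from the blood and inhibitors that shut the pathway down again. In an allergic lung, T helper 2 cells and innate lymphoid cells add IL-4 and IL-13, which act through the receptor chain Il4ra on goblet cells and macrophages, and IL-5, the growth factor of eosinophils. Eotaxins are the chemokines that eosinophils follow.

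The promoters of a few responding genes are shown so that the motifs counted further on can be seen in place. They are from RefSeq on build GRCm38.p6, 5′ to 3′ on the strand of the gene, and each ends at the base before the annotated start. Capitals mark matches to GGANTTTCC, a core of NF-kB sites, in Cxcl1 (chr5:90891125-90891244, + strand), Cxcl2 (chr5:90903779-90903898, + strand), Acod1 (chr14:103046892-103047011, + strand) and Nfkbia (chr12:55492648-55492837, - strand). Both strands were searched, so that GGAAANTCC is the same motif.
Cxcl1: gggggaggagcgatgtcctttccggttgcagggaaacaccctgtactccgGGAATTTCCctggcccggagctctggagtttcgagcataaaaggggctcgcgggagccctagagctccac
Cxcl2: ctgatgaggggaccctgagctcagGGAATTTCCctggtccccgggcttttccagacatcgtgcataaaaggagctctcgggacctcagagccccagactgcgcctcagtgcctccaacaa
Acod1: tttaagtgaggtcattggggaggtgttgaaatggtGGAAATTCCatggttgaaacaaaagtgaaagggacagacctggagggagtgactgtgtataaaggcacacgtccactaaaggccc
Nfkbia: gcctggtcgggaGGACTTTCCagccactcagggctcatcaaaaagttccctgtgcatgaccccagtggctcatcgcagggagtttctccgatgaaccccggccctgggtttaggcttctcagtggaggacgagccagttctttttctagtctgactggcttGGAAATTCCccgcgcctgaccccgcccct
In Cxcl10 (chr5:92348890-92349119, - strand) and Ifit1 (chr19:34640769-34640888, + strand) the capitals also mark GAAANNGAA or its reverse TTCNNTTTC, a core of interferon response elements. In Ifit1 the matches that begin at -109 and -103 from the start overlap, and the match at -84 stands apart.
Cxcl10: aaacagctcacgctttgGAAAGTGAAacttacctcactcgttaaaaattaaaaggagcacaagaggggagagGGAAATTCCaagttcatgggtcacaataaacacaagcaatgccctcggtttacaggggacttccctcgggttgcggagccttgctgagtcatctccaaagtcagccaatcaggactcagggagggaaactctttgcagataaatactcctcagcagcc
Ifit1: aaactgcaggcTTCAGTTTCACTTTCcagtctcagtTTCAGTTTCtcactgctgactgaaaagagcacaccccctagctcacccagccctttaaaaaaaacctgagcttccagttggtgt
In Hspa1b (chr17:34959239-34959358, - strand) the capitals mark GAANNTTC, a pair of inverted units bound by heat shock factor.
Hspa1b: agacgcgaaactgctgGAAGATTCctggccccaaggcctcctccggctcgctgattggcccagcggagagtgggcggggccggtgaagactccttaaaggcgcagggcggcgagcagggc
The stretch before Hspa1a has the same letter as that of Hspa1b at 119 of 120 positions and holds the same match.

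All values are the deposited intensities, and changes are differences of the mean log2(intensity + 16), in which the 16 is a pseudocount that shrinks the change of dim genes. A gene rose or fell where limma's adjusted p over all 12393 genes was under 0.05. Array medians ran from 63.7 to 77.0, and 14% of the gene values lay below the pseudocount. Arrays of the allergen group correlated with each other at 0.952 to 0.976 across genes, PBS arrays at 0.958 to 0.973, and arrays of different groups at 0.927 to 0.954. The lung label was checked on Sftpc, the surfactant protein of alveolar type 2 cells, which lay between 4206 and 6430 on all 10 arrays, and on Scgb1a1 of club cells, which lay between 4418 and 6361. Neither gene passed the test. The mean level of 28 genes of heart and skeletal muscle ran from 6.96 to 8.46 on PBS arrays and from 6.74 to 9.12 on allergen arrays, and 0 of them passed. The mean of 12 fat cell genes ran from 7.17 to 8.56 on PBS arrays and was 7.61, 6.49, 6.50, 8.13 and 8.21 on allergen arrays. All 12 had negative changes (median -0.48) and 0 passed, and the part of fat in other changes was not tested.

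PBS replicate 2 stood above the other PBS arrays in some groups of inflammatory genes, but not in type 2, antiviral or interferon gamma genes. Its mean over 29 neutrophil genes was 7.06 against 6.67 to 6.82 on the other PBS arrays, and over 14 genes of neutrophil-attracting chemokines and granulocyte factors 7.60 against 6.79 to 7.22. Leaving it out gave 827 genes higher and 1248 lower, and changes without it stand beside the chemokine and calprotectin genes.

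With all 10 arrays, 871 genes rose (7.03% of those tested) and 1487 fell (12.0%), together 19.0%. The rises were larger than the falls. Of the genes that rose, 296 did so by more than 1 on the log2 scale and 82 by more than 2, against 122 and 8 of the genes that fell. The groups did not overlap in 1679 genes, 13.5% of those tested, and 1507 of these passed. The largest rises and falls named below were chosen among genes without overlap. Their lack of overlap is therefore not a further result. The median change of all genes was -0.07. When every array was centred on its median, the same 871 genes were among 1106 that rose, and 974 fell, so that 53.2% of changed genes were higher instead of 36.9%. List counts that move by over 1.5 times with this centring are given both ways.

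**Figure D1:**
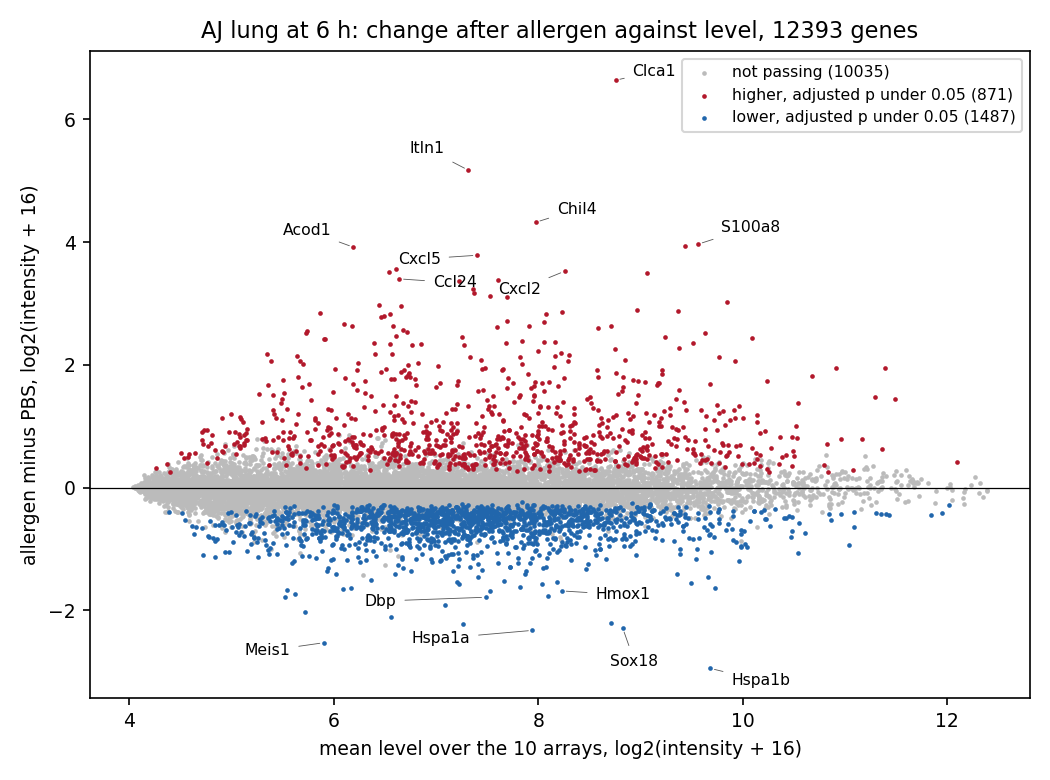
Change after allergen (vertical axis, allergen minus PBS, log2(intensity + 16)) against the mean level over the 10 arrays (horizontal axis, same scale), 1 point a gene; red points rose, blue points fell and grey points did not pass. Clca1 lies highest at 6.64 and Hspa1b lowest at -2.95, and more red than blue points lie beyond 2.

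Genes of mucus and goblet cells held the 2 largest changes. Clca1, a secreted goblet cell protein that processes mucus, read 4196, 4408, 4579, 3907 and 4468 on the 5 allergen arrays and 106, 11.6, 19.1, 55.9 and 1.9 on the 5 PBS arrays. The allergen arrays were close together, while the PBS arrays spread widely, with replicate 1 highest. Clca1 rose by 6.64 ± 0.55 (SE, adjusted p = 8.63e-12), and its other, dimmer probe set by 1.91. Itln1, a secreted lectin that binds microbial sugars, read 1113, 1053, 1059, 936 and 632 with allergen and 31.9, 3.7, 3.5, 6.0 and 16.2 with PBS, a rise of 5.17 ± 0.26 (adjusted p = 4.14e-17). Some mouse strains carry a near-identical copy of Itln1, and its probe set may read both. Muc5ac, the gel-forming mucin of airway goblet cells, read 190.4, 292, 294, 274 and 136 with allergen and 22.5, 15.4, 8.4, 17.1 and 13.4 with PBS. All PBS arrays were near the pseudocount and all allergen arrays were well above them, and the rise was 2.98 ± 0.32 (adjusted p = 3.98e-09).

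By role, 11 of 18 measured secreted products rose and 0 fell, with a median change of 0.92 against -0.07 for all genes. They included Tff2, a trefoil peptide of mucosal repair, by 3.10, Agr2, which folds mucins in the endoplasmic reticulum, by 2.42, Fcgbp by 2.38, Pigr, the carrier of polymeric IgA into mucus, by 2.28, and Muc5b by 1.19. Spdef, the transcription factor of goblet cells, rose by 1.63, and Foxa2, which restrains goblet cell differentiation, fell by 0.86. Foxa2 read 156 to 269 with allergen and 306 to 574 with PBS, without overlap. Among ion carriers Slc26a4, the anion exchanger pendrin, rose by 3.03, with 131 to 781 on PBS arrays and 2023 to 3178 on allergen arrays. Of the enzymes that attach sugars to mucins 0 of 8 rose and 1 fell, with a median of -0.02. Of 23 folding and secretion enzymes of the endoplasmic reticulum, 2 rose and 2 fell (4 and 1 with median centring), with a median of 0.05. These shares, 8.7% each way, were near the 7.03% higher and 12.0% lower of all genes. Hspa5, the main chaperone of that compartment, had a change of 0.02 ± 0.17 (adjusted p = 0.973).

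Of 8 measured ligands that draw or expand granulocytes and macrophages 4 rose and 0 fell. Cxcl15, Ppbp, Csf1 and Csf2 did not pass, with changes of 0.07, 0.21, 0.28 and 0.06. Cxcl5, made mainly by epithelium, read 792, 728, 604, 537 and 456 with allergen and 6.6, 73.5, 43.2, 55.5 and 6.7 with PBS, a rise of 3.79 ± 0.32 (adjusted p = 1.5e-11). Cxcl2 read 1129, 1918, 1034, 601 and 820.2 with allergen and 38.2, 197, 58.1, 106 and 40.4 with PBS, a rise of 3.52 ± 0.25 (adjusted p = 1.55e-13). Cxcl1 read 1709, 2134, 1851, 1388 and 1906 with allergen and 55.1, 419.5, 143, 238 and 66.0 with PBS, a rise of 3.49 ± 0.33 (adjusted p = 2.49e-10). In all of them PBS replicate 2 was the highest PBS array and still below every allergen array. Without it the rises were 4.03 for Cxcl5, 3.84 for Cxcl2 and 3.86 for Cxcl1. Csf3, the growth factor of granulocytes, read 125, 556, 144, 119.8 and 70.1 with allergen and 8.0, 8.5, 10.3, 34.0 and 3.5 with PBS. Allergen replicate 2 was the highest for both Csf3 and Cxcl2, and Csf3 rose by 2.66 ± 0.35 (adjusted p = 2.9e-07). On the receiving side 6 of 6 receptors rose, among them Cxcr2 by 1.55 and Csf3r by 1.33.

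Genes of neutrophils themselves were higher, 22 of 29 with 0 lower and a median of 1.13. In whole lung, more cells of a type and more RNA per cell cannot be told apart. S100a8, a subunit of calprotectin, read 3582, 3373, 2513, 3234 and 2398 with allergen and 71.6, 562, 206, 157 and 117 with PBS, a rise of 3.97 ± 0.46 (adjusted p = 2.05e-08), or 4.37 without PBS replicate 2. Its partner S100a9 read 3083, 3525, 2104, 2882 and 2219 with allergen and 109, 435, 145, 154 and 97.2 with PBS, a rise of 3.94 ± 0.50, or 4.28 without that array. In both genes PBS replicate 2 was more than 2 times as bright as any other PBS array. Surface genes rose in 12 of 12 cases, among them the decoy receptor Il1r2 by 2.71, the activating receptor Trem1 by 2.51 and Cd177 by 1.92. Granule proteins rose in 10 of 17 cases. Ngp, a granule protein of maturing neutrophils, read 307 to 711 with allergen and 72.4 to 125 with PBS, and Camp, the cathelicidin, read 101, 87.1, 33.6, 116 and 10.4 with allergen and 7.9, 7.5, 5.3, 7.4 and 6.5 with PBS. Camp was uneven among allergen arrays, with replicate 5 close to the PBS range.

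Among the other chemokines 25 of 47 rose and 2 fell. Ccl24, an eotaxin, read 492, 178, 299.7, 346 and 304 with allergen and 15.6, 17.0, 22.5, 10.3 and 9.9 with PBS, a rise of 3.40 ± 0.31 (adjusted p = 1.11e-10). Ccl11, the other eotaxin measured, read 1072, 492, 423, 398 and 282 with allergen and 30.5, 38.8, 37.5, 42.6 and 47.6 with PBS, a rise of 3.17 ± 0.27 (adjusted p = 2.24e-11). The PBS arrays of Ccl11 were even, and allergen replicate 1 stood above the rest at 1072. Ccl3, which draws monocytes and neutrophils, read 176 to 473 with allergen and 2.2 to 57.3 with PBS and rose by 3.56. The monocyte attractants Ccl2 and Ccl7 rose by 2.96 and 2.83, and Ccl17, which draws T helper 2 cells, by 1.51. Ccr1, a receptor for Ccl3, rose by 3.12, with 36.7 to 70.7 on PBS arrays and 425 to 689.7 on allergen arrays. Cxcr4, the receptor that retains leukocytes through Cxcl12, went the other way: it read 55.4 to 91.4 with allergen and 213 to 274 with PBS and fell by 1.57 ± 0.16 (adjusted p = 1.6e-09).

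The type 2 cytokines were dim. Il4 read 153, 93.3, 139, 119.6 and 82.3 with allergen and 45.4, 37.8, 37.1, 57.7 and 22.5 with PBS, a rise of 1.25 ± 0.17 (adjusted p = 6.08e-07). Il13 read 39.7, 37.6, 38.5, 41.0 and 11.7 with allergen and 3.1, 7.5, 4.1, 8.3 and 3.0 with PBS, with allergen replicate 5 lowest, and rose by 1.19 ± 0.21 (adjusted p = 3.55e-05). Il5 read 25.8, 19.7, 16.9, 9.2 and 23.5 with allergen and 4.8, 6.4, 2.7, 13.3 and 1.9 with PBS. Its groups overlapped near the pseudocount, and it passed with a rise of 0.68 ± 0.19 (adjusted p = 0.00661). Il33, the epithelial alarmin that activates innate lymphoid cells, was brighter and rose by 1.45, with 305 to 468 on PBS arrays and 878 to 1190 on allergen arrays. Il4ra, the receptor chain shared by IL-4 and IL-13, rose by 2.08 ± 0.17 (adjusted p = 6.43e-12), with 181 to 264 on PBS arrays and 779.8 to 1088 on allergen arrays.

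Of 17 targets and effectors of these cytokines, 13 rose and 1 fell (0 without PBS replicate 2), with a median of 1.69. Chil4, a chitinase-like protein, read 794 to 1434 with allergen and 32.3 to 57.4 with PBS and rose by 4.33 ± 0.30. Arg1, the arginase of alternatively activated macrophages, read 379, 79.9, 118, 158 and 90.4 with allergen and 1.6, 6.7, 1.8, 1.8 and 22.7 with PBS. Allergen replicate 1 was more than 2 times as bright as any other, and the rise was 2.84 ± 0.34 (adjusted p = 3.17e-08). Chil3 rose by 2.07, Retnla by 1.95 and the feedback inhibitors Socs1 and Cish by 1.80 and 1.72. Of 8 eosinophil genes measured 1 passed, Rnase2a, of the eosinophil-associated ribonuclease family, which rose by 3.52, with 4.0 to 19.8 on PBS arrays and 266 to 326 on allergen arrays. The granule protein genes Epx and Prg2 were near background in both groups: Epx read 15 to 25.2 with allergen and 13.1 to 24.1 with PBS, and Prg2 13.1 to 26.7 and 3.8 to 23.5. Close copies in the chitinase-like and ribonuclease families may share probe sets. Of 13 basophil and mast cell genes 2 rose (15.4%, against 7.03% of all genes) and 1 fell (7.7%, against 12.0%), with a median of 0.01. Hdc, which makes histamine, rose by 1.72, and Kit, the receptor of mast cell growth factor, fell by 0.79. Hdc had also been set down as a neutrophil marker, so its rise is not specific to basophils and mast cells. Mcpt8, a basophil protease, rose by 1.75, with 2.2 to 20.3 on PBS arrays and 61.3 to 78.3 on allergen arrays.

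**Figure D2:**
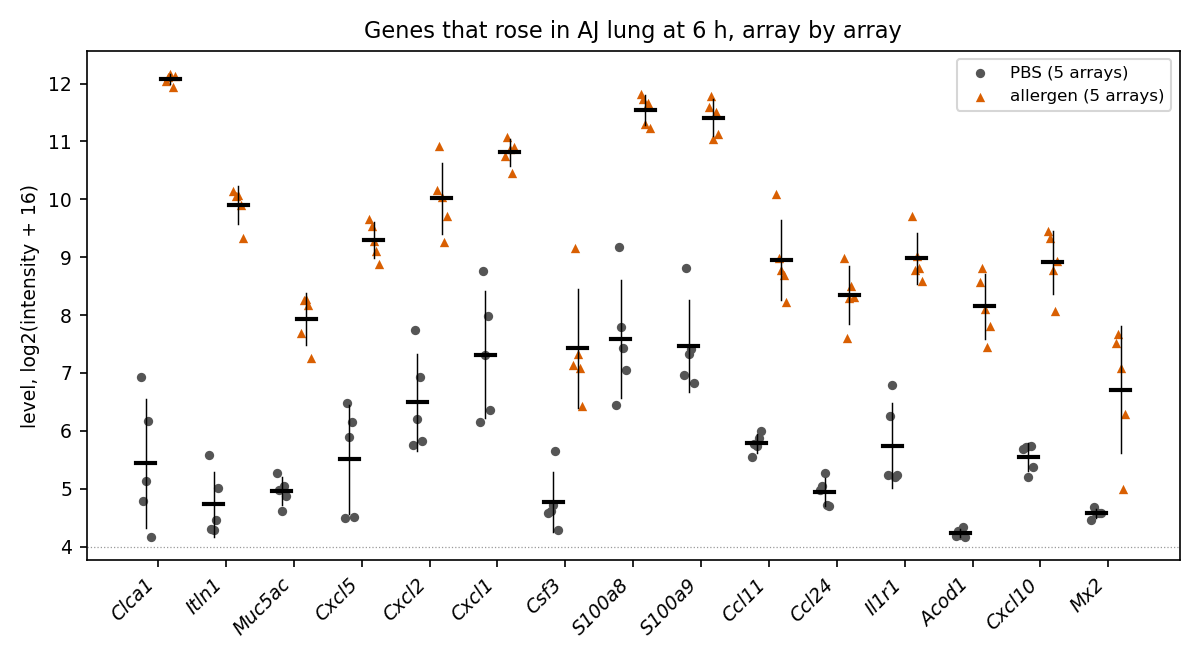
Level on each array, log2(intensity + 16), of 15 genes that rose, with grey circles for the 5 PBS arrays and orange triangles for the 5 allergen arrays; lines are the mean and bars 1 SD, and the dotted line at 4 is an intensity of 0. Allergen arrays lie above PBS arrays for every gene shown, and the spread is widest among PBS arrays for Clca1 and Cxcl1 and among allergen arrays for Csf3 and Mx2.

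Among the other interleukins 9 of 22 ligands and 10 of 23 receptors rose, and 1 receptor fell. In the TNF superfamily 5 of 13 ligands rose and 1 fell, and 7 of 23 receptors rose and 2 fell. Il1b read 1153, 1326, 871, 573 and 905 with allergen and 106, 308, 128, 151 and 79.2 with PBS and rose by 2.60 ± 0.24 (adjusted p = 7.96e-11), and its antagonist Il1rn rose by 2.39. The signalling receptor Il1r1 read 828, 425, 501, 436 and 368 with allergen and 21.8, 60.1, 94.4, 20.7 and 21.6 with PBS. It rose by 3.24 ± 0.32 (adjusted p = 7.57e-10). Il6 read 241, 599, 127, 159.8 and 148 with allergen and 16.1, 24.1, 15.6, 21.1 and 12.7 with PBS, with allergen replicate 2 again highest, and rose by 2.77 ± 0.21 (adjusted p = 1.64e-12). Tnf read 239, 134, 183, 85.3 and 90.7 with allergen and 7.5, 57.6, 20.2, 26.7 and 10.4 with PBS and rose by 2.04 ± 0.26 (adjusted p = 1.96e-07). The anti-inflammatory Il10 rose by 1.49 and its receptor Il10ra by 1.53. Lifr, the receptor of leukaemia inhibitory factor, fell by 1.01, and so did the TNF family ligand Tnfsf10, by 0.82.

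Genes of the NF-kB pathway and of feedback on inflammatory signals rose. Of 14 members listed as factors, Bcl3 among them, 10 rose. Of 11 listed as inhibitors of inflammatory signals, Socs3 among them, 9 rose, and 0 of either role fell. Bcl3, a nuclear IkB family member, rose by 2.62, the kinase Map3k8 by 1.94, Nfkbiz by 1.96 and Relb by 1.21. Socs3, which blocks cytokine receptors, read 1644 to 1913 with allergen and 152 to 266 with PBS and rose by 2.88 ± 0.17. Zc3h12a, a ribonuclease that degrades inflammatory mRNAs, read 209, 366, 225, 182 and 168 with allergen and 20.8, 29.6, 12.4, 28.0 and 23.1 with PBS, without overlap, and rose by 2.63 ± 0.18 (adjusted p = 1.37e-13). Tnfaip3, an enzyme that edits ubiquitin chains of the pathway, rose by 1.67 and Zfp36, which destabilises Tnf mRNA, by 1.34. Nfkbia, the classical IkB inhibitor, was bright on every array, 5028, 5440, 5378, 4357 and 5135 with allergen and 3964, 4170, 3798, 3399 and 3636 with PBS. The groups did not overlap, and the rise was small, 0.42 ± 0.11 (adjusted p = 0.007).

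The NF-kB motif shown above stands in 1.25% of the 32851 promoter windows of the RefSeq table, which run from 250 bases before to 50 after a start. Among the 9887 tested genes with a window, 1.72% held it, against 26 of 684 genes that rose (3.80%) and 19 of 1212 that fell (1.57%). Of 22 genes of the NF-kB list with a window 4 held it (18.2%), and so did 3 of 10 genes of neutrophil-attracting chemokines and granulocyte factors and their receptors. It was found before Cxcl1, Cxcl2, Il6, Icam1, Acod1, Nfkbia and Tnfaip3, which rose. It also stood before genes that did not pass, such as Csf1, Nlrp3 and Tlr3, and before Krt23 and Nr1d2, which fell. These are matches of letters, not measured binding.

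Receptors that sense microbes rose in 16 of 31 cases, with 0 lower. Some of them, such as Trem1 and Clec4d, were also counted among the neutrophil genes. Ptx3, a soluble pattern receptor, read 147 to 328 with allergen and 14.9 to 22.2 with PBS and rose by 2.79 ± 0.16. Cd14, the coreceptor for endotoxin, read 2090 to 2988 with allergen and 336 to 921 with PBS and rose by 2.43 ± 0.19. The highest PBS value of Cd14 was again that of replicate 2. The C-type lectins Clec4d and Clec4e rose by 2.35 and 2.33. Acod1, which makes itaconate in activated macrophages, read 363, 436, 259.6, 158 and 209 with allergen and 2.2, 3.2, 2.4, 4.2 and 1.9 with PBS. All PBS arrays were under 5 and all allergen arrays above 150, a rise of 3.92 ± 0.32 (adjusted p = 5.25e-12) that did not depend on PBS replicate 2 (3.93 without it). Among acute phase proteins 9 of 23 rose, with Saa3 by 2.63, the zinc carrier Slc39a14 by 2.37 and Lcn2, which binds bacterial siderophores, by 1.82. A dimmer probe set of Slc39a14 had a change of only 0.44.

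Interferon target genes were listed in an antiviral and an interferon gamma group, and members of both rose. Of 28 antiviral genes 19 rose and 0 fell, with a median of 0.66. Mx2, an antiviral GTPase, read 167, 189, 120.4, 15.8 and 62.0 with allergen and 5.9, 9.6, 7.9, 7.9 and 7.9 with PBS. Allergen replicate 4 was barely above the PBS arrays while replicates 1 and 2 were the brightest, and the rise was 2.14 ± 0.25 (adjusted p = 1.99e-08). Rsad2, the antiviral enzyme viperin, read 822, 1169, 691, 455 and 1169 with allergen and 227, 250.3, 276, 184 and 142 with PBS, and Ifit1, which binds viral RNA, read 641, 471, 439, 245 and 514 with allergen and 132, 139, 154, 152 and 117 with PBS. Replicate 4 was the lowest allergen array in both, and the rises were 1.87 ± 0.21 and 1.57 ± 0.18. The mean level of the 28 genes gave the same lowest array: it was 7.60 on allergen replicate 4 and 7.83 to 8.12 on the other allergen arrays, against 7.01 to 7.16 on PBS arrays.

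Of 23 genes of the interferon gamma group, mostly GTPases that attack intracellular vacuoles, 16 rose and 0 fell, with a median of 0.96. Iigp1 read 792 to 2073 with allergen and 232 to 375 with PBS and rose by 1.92 ± 0.20, and Igtp read 863, 515, 574, 514 and 681 with allergen and 369.6, 215, 455, 185 and 211 with PBS and rose by 1.15 ± 0.22 (adjusted p = 0.000129). The lowest allergen value of Igtp was only slightly above the highest PBS value. Cxcl10, a chemokine for T cells that bear Cxcr3, read 686, 628, 421, 253 and 474 with allergen and 35.4, 36.7, 20.7, 37.2 and 25.5 with PBS. Replicate 4 was again lowest, and the rise was 3.37 ± 0.22 (adjusted p = 3.2e-14). Cxcl9, a ligand of the same receptor, rose by 2.02. The interferon motif, which stands in 8.56% of promoter windows, was found in 12 of 20 antiviral genes with a window (60%), in 13% of the genes that rose and in 7.34% of those that fell.

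Immediate early genes, which answer growth and stress signals within minutes, and the feedback genes of the MAP kinase pathway rose in 20 of 47 cases and fell in 6. The share that rose was 42.6%, against 7.03% of all genes. The share that fell, 12.8%, was near the 12.0% of all genes. Egr1, a zinc finger factor, read 1113, 1519, 1087, 819 and 754 with allergen and 341, 309, 375, 279.6 and 228 with PBS, without overlap, and rose by 1.71 ± 0.23 (adjusted p = 5.59e-07). Fos rose by 1.07, Junb by 1.78, Myc by 1.39 and the growth arrest gene Gadd45g by 2.62. Dusp7, a phosphatase of the kinase ERK, and Etv5, a factor induced by ERK, fell by 1.30 and 1.24, while Spry4, an inhibitor of the same pathway, rose by 1.10.

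Genes of lymphocytes were higher in part. Of 26 T and NK cell genes 7 rose, with Cd3d of the T cell receptor complex by 2.64, the checkpoint receptor Ctla4 by 2.33 and the cytotoxic protease Gzmb by 2.18. Gzmb read 111 to 197 with allergen and 9.5 to 60.2 with PBS. Of 17 B and plasma cell genes 6 rose. Jchain, which joins polymeric IgA and IgM, read 2526, 1838, 1212, 1932 and 2131 with allergen and 195, 236, 484, 613 and 221 with PBS and rose by 2.51 ± 0.46 (adjusted p = 7.82e-05). The heavy chain gene Ighm rose by 1.95, with 426 to 2323 on PBS arrays and 3015 to 4602 on allergen arrays, and PBS replicates 3 and 4 were the highest PBS arrays for both genes. The 11 probe sets of Ighm disagreed, with changes from -0.40 to 4.23. Cd83, a marker of mature dendritic cells, rose by 2.86, with 60.5 to 143 on PBS arrays and 546 to 1186 on allergen arrays, and 6 of 10 genes of class II presentation rose.

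The vessel wall and the matrix showed a few large rises. Selp, the selectin with which endothelium captures leukocytes, read 308 to 401 with allergen and 34.7 to 62.1 with PBS and rose by 2.45 ± 0.17. The adhesion molecules Icam1 and Sele rose by 0.70 and 0.76. Thbs1, a matrix protein that activates TGF-beta, read 1563 to 2081 with allergen and 339 to 492 with PBS and rose by 2.13 ± 0.13. Of 38 matrix proteases and inhibitors 12 rose and 5 fell (2 fell with median centring, and 2 without PBS replicate 2). The share that fell, 13.2%, was near the 12.0% of all genes. The rises included Adam8 by 2.22, Mmp12 by 2.06 and the inhibitor Timp1 by 1.78, and the falls included Mmp11 by 1.15 and the inhibitor Reck by 0.79. Among 63 matrix genes 7 rose and 7 fell (4 fell with median centring, and 4 without PBS replicate 2). These shares, 11.1% each way, were near the 7.03% higher and 12.0% lower of all genes. Adm, a peptide that tightens endothelium and widens vessels, read 125 to 319.5 with allergen and 30.9 to 49.8 with PBS and rose by 2.03. Of 16 glycolysis genes 5 rose and 0 fell, and the rises included the glucose carrier Slc2a3 by 1.62 and the kinase Hk2 by 1.37. Hif1a, the oxygen-sensitive factor that acts on several of them, rose by 1.17.

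The largest fall was that of Hspa1b, of the heat shock chaperones, which refold damaged proteins and are switched on by heat shock factor. Hspa1b, an inducible Hsp70, read 287, 248, 302, 256 and 310.3 with allergen and 2571, 2272, 2829, 2001 and 1801 with PBS. It was bright on all PBS arrays and far lower on every allergen array, and it fell by 2.95 ± 0.23 (adjusted p = 3.52e-12). Hspa1a, its neighbour of near-identical sequence, read 93.5, 93.8, 93.7, 90.6 and 97.7 with allergen and 653, 544, 639.8, 549.5 and 351 with PBS and fell by 2.33 ± 0.25 (adjusted p = 5.1e-09). The allergen arrays of Hspa1a were within 10 of each other. The probe sets of this pair may read both transcripts, so they are not independent. Of 28 chaperones 12 fell and 0 rose (1 with median centring), with a median of -0.29.

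Cochaperones and the mitochondrial chaperonins fell as well. Hsph1, a nucleotide exchange factor of Hsp70, read 132, 128, 108, 114 and 87.1 with allergen and 381, 337, 488, 423 and 303 with PBS, without overlap, and fell by 1.63 ± 0.18 (adjusted p = 7.08e-09). Chordc1, a cochaperone of Hsp90, fell by 1.20, the J proteins Dnaja1 and Dnajb1 by 1.17 and 0.84, and the mitochondrial chaperonins Hspd1 and Hspe1 by 0.83 and 0.84. Hspa8, the constitutive Hsp70, read 1914 to 2623 with allergen and 2378 to 2970 with PBS, a change of -0.28 ± 0.13 that did not pass (adjusted p = 0.155). The heat shock motif shown above was found in 11 of 24 chaperone genes with a window (45.8%), against 7.86% of all windows and 7.10% of the genes that fell.

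Transcription factors of the endothelium were the next group. Meis1, a homeodomain factor, read 23.5, 8.6, 9.6, 4.1 and 3.1 with allergen and 97.4, 114, 147, 133 and 155 with PBS. The allergen arrays were at or near background, so the fall of 2.53 ± 0.24 (adjusted p = 2.49e-10) is shrunk by the pseudocount. Sox18, which acts in lymphatic and arterial vessels, read 142, 136, 226, 177 and 307 with allergen and 1123, 1138, 879, 908 and 926 with PBS and fell by 2.29 ± 0.18 (adjusted p = 3.46e-12). Hey1, a target of Notch, read 41.1, 61.3, 83.5, 39.1 and 58.4 with allergen and 281, 338, 329, 338 and 302 with PBS and fell by 2.23 ± 0.14 (adjusted p = 3.07e-14). Sox17, a factor of arterial endothelium, read 78.7, 107, 93.2, 68.3 and 93.4 with allergen and 394, 310.3, 352, 253 and 282 with PBS and fell by 1.68 ± 0.18 (adjusted p = 4.53e-09). The groups did not overlap in these genes, as the choice of the largest falls required.

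Of 34 endothelial transcription factors 14 fell and 1 rose, Id2 by 0.69, with a median of -0.41. Foxf2 fell by 1.16, the venous factor Nr2f2 by 1.15 and Id3, a target of BMP signals, by 0.90. Among 31 receptors 6 fell and 1 rose (5 and 3 with median centring). Those that fell included Ramp2 and Calcrl, which form the receptor of adrenomedullin, by 1.07 and 0.87, the apelin receptor Aplnr by 0.92 and Bmpr2 by 0.83. Among 35 ligands and surface proteins 10 fell, with Clec14a by 1.41, Tmem100 by 1.33 and Pdgfb by 1.0. Genes found in most endothelium differed. Cav1, the coat protein of caveolae, fell by 0.42 ± 0.10 (adjusted p = 0.002). Cdh5, the cadherin of endothelial junctions, read 929.6 to 1641 with allergen and 1448 to 1582 with PBS, a change of -0.32 ± 0.13 (adjusted p = 0.0998), and Pecam1 read 735 to 1130 and 765 to 1020, a change of 0.02 ± 0.11 (adjusted p = 0.946). Over the whole list of 100 genes, 30 fell and 3 rose, or 27 and 6 with median centring.

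**Figure D3:**
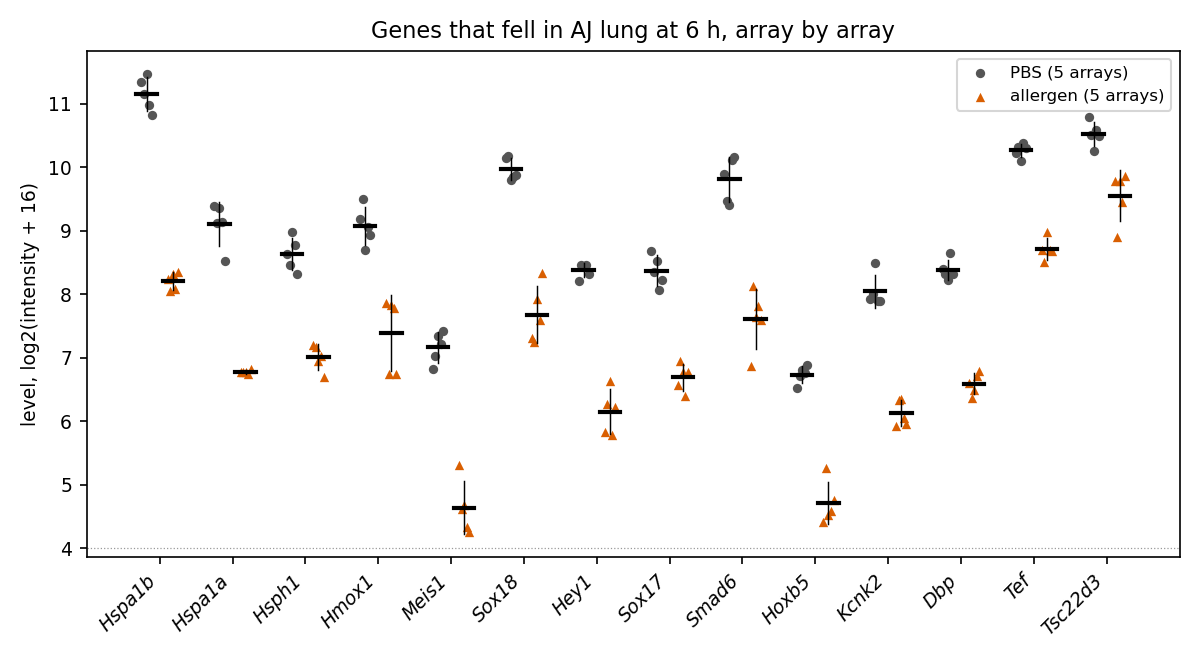
Level on each array, log2(intensity + 16), of 14 genes that fell, with grey circles for the 5 PBS arrays and orange triangles for the 5 allergen arrays; lines are the mean and bars 1 SD. For every gene shown the allergen arrays lie below the PBS arrays, and Meis1 and Hoxb5 come near the dotted line at 4, an intensity of 0.

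Signals of development and growth leaned the same way, 20 of 92 lower and 7 higher. Smad6, an inhibitor of BMP signals that BMP itself induces, read 100.3, 264, 184, 209 and 177 with allergen and 937, 695, 662, 1099 and 1134 with PBS. It fell by 2.21 ± 0.22 (adjusted p = 8.13e-10). Smad7, the related inhibitor of TGF-beta, fell by 0.75. The activin subunits Inhba and Inhbb rose by 2.17 and 1.85, and a slightly dimmer probe set of Inhbb had a change of only 0.57. Among 33 Wnt and hedgehog genes 8 fell and 1 rose. Ptch1, the hedgehog receptor and itself a hedgehog target, read 89.5 to 97.6 with allergen and 207 to 332 with PBS and fell by 1.35, Gli2 of the same pathway fell by 1.06, and the Wnt receptors Fzd7 and Fzd2 by 1.04 and 0.83. The 15 largest falls also held Hoxb5, a patterning factor of the lung, at 5.3 to 22.2 with allergen and 75.7 to 102 with PBS, the potassium channel Kcnk2, at 44.8 to 65.2 and 221 to 345, and Prickle1 of planar polarity, at 113 to 160.3 and 416 to 581.

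Of 8 output genes of the circadian clock 5 fell and 1 rose, and of 16 genes of its core loop 5 fell (3 with median centring) and 3 rose. Dbp, a transcription factor driven directly by the clock, read 81.4, 66.2, 74.0, 88.5 and 94.7 with allergen and 321, 303, 283, 384 and 302 with PBS and fell by 1.79 ± 0.21 (adjusted p = 2.94e-08). Its relatives Tef and Hlf, which bind the same sites, fell by 1.55 ± 0.12 and 1.36 ± 0.14, and Tef read 348 to 488 with allergen and 1076 to 1314 with PBS. Nfil3, which represses those sites, rose by 1.88 ± 0.18, with 23.5 to 38.4 on PBS arrays and 106 to 224 on allergen arrays. In the core loop Arntl, the activator, rose by 1.11, while Per2, a repressor that it drives, fell by 0.68 and Nr1d2 by 0.82. Glucocorticoid targets and metallothioneins went both ways. Of 25 measured, 7 rose (28%, against 7.03% of all genes) and 5 fell (20%, against 12.0%). Tsc22d3, a target of glucocorticoids, fell by 0.97, with 1210 to 1755 on PBS arrays and 461 to 919 on allergen arrays. The metallothioneins Mt1 and Mt2 rose by 1.45 and 1.48.

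Of 72 enzymes that handle oxidants and foreign compounds 22 fell and 6 rose, or 17 and 10 with median centring. Hmox1, haem oxygenase, read 216, 91.0, 211, 205 and 90.9 with allergen and 565, 710.3, 398, 518 and 474 with PBS. Allergen replicates 2 and 5 were near 91 and the others above 200, all under the PBS range, and it fell by 1.69 ± 0.25 (adjusted p = 2.79e-06). Of 36 Nrf2 targets and glutathione enzymes 11 fell and 4 rose (9 and 7 with median centring). Srxn1, which repairs peroxiredoxins, fell by 0.97 and Nqo1 by 0.62, while Sod2, the mitochondrial superoxide dismutase that NF-kB induces, rose by 0.70. Of 36 cytochrome P450 and related enzymes 11 fell and 2 rose. Hpgd, which inactivates prostaglandins, read 364 to 602 with allergen and 1425 to 1575 with PBS and fell by 1.63. Of 21 sterol synthesis genes 9 fell (5 with median centring), with Sqle by 0.75 and Idi1 by 0.85 in overlapping groups. Ch25h, which makes a sterol that suppresses this pathway, rose by 2.07 ± 0.22, with 84.1 to 271 on PBS arrays and 543 to 696 on allergen arrays.

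Among alveolar epithelial genes 10 of 24 fell and 0 rose. Rtkn2, a gene of type 1 cells, fell by 1.30, the water channel Aqp5 by 0.81 and Cebpa by 0.84, while Sftpc and Sftpb had changes of -0.16 ± 0.15 and -0.22 ± 0.14 that did not pass. The epithelial sodium channel subunits Scnn1b and Scnn1g fell by 0.60 and 0.59. Shares of other groups are given beside 7.03% higher and 12.0% lower for all genes. Of 31 standard proteasome subunits 1 rose and 1 fell (0 fell with median centring), and the same counts held for 52 subunits of oxidative phosphorylation. Of 33 proliferation genes 2 rose and 2 fell (1 with median centring). Actb, the cytoplasmic actin often used as a reference, had a change of 0.05 ± 0.16 (adjusted p = 0.902).

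**Figure D4:**
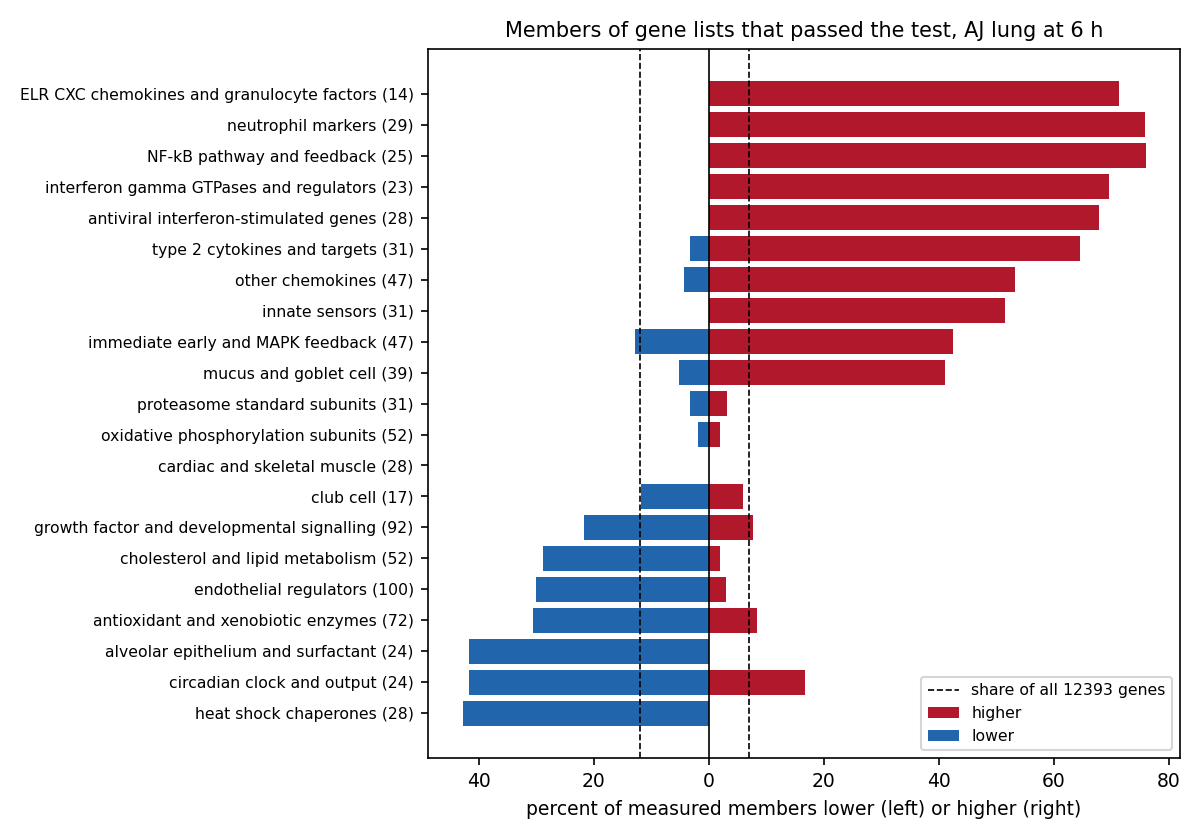
Percent of the measured members of 21 gene lists that rose (red, to the right) or fell (blue, to the left), with the number measured in brackets; dashed lines mark the shares of all genes, 7.03% higher and 12.0% lower. Bars of the inflammatory lists reach past 40% on the right, and those of heat shock, clock and alveolar genes past 40% on the left.

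How far the response was particular to AJ was tested against C3H at 6 h, as the difference of the allergen effects of both strains. The C3H comparison shares no array with that of AJ. The difference passed in 267 genes (2.15%). It was positive in 125 of them and negative in 142. Of the 871 genes that rose in AJ 117 passed for it, and of the 1487 that fell 129. The genes named for a difference were chosen among those that passed in AJ at 6 h, which favours a larger effect there. Across genes the effects of the 2 strains had a Pearson r of 0.612 and a Spearman rho of 0.439, as a description. The genes that rose in AJ and in C3H numbered 345, which is 39.6% of the AJ rises and 70.8% of the 487 C3H rises, and those that fell in both numbered 274, or 18.4% and 60% of the 457 C3H falls.

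Itln1 had the largest difference: its effect was 0.51 ± 0.26 in C3H (adjusted p = 0.275), and the difference was 4.66 ± 0.37 (adjusted p = 7.49e-11). Muc5ac had an effect of 0.85 ± 0.32 in C3H and a difference of 2.13 ± 0.45 (adjusted p = 0.00537), while Clca1 rose in both strains and its difference of 1.79 ± 0.78 did not pass (adjusted p = 0.268). Chil4, Csf3 and Acod1 differed by 2.92, 2.36 and 2.15. The interferon groups are set side by side, without a test between them. Of the 28 antiviral genes 9 passed for the difference, and 4 rose in C3H. Of the 23 interferon gamma genes 1 passed, and 18 rose in C3H. Mx2 had an effect of 0.07 ± 0.25 in C3H and a difference of 2.07 ± 0.35 (adjusted p = 0.000413), whereas Igtp rose by 2.12 ± 0.22 in C3H with a difference of -0.97 ± 0.31 (adjusted p = 0.0892).

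Members of the heat shock and endothelial lists fell further in AJ. Hspa1b had an effect of -0.66 ± 0.23 in C3H and a difference of -2.29 ± 0.33 (adjusted p = 3.82e-05), and 7 of 28 chaperones passed for the difference. Sox18 and Hey1 had effects of -0.23 ± 0.18 and -0.33 ± 0.14 in C3H and differences of -2.06 ± 0.26 and -1.89 ± 0.20 (adjusted p = 3.22e-06 and 2.24e-07). Of the 34 endothelial factors 5 passed. Egr1 had an effect of -0.27 ± 0.23 in C3H and a difference of 1.98 ± 0.33 (adjusted p = 0.000356), and 10 of 47 genes of its list passed. For the type 2 cytokines the strain difference did not pass: it was 0.50 ± 0.24 for Il4, 0.47 ± 0.29 for Il13 and 0.04 ± 0.26 for Il5, with adjusted p-values of 0.348, 0.517 and 0.969. Likewise the eotaxins Ccl24 and Ccl11 had differences of -0.30 ± 0.44 and 0.62 ± 0.39.

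**Figure D5:**
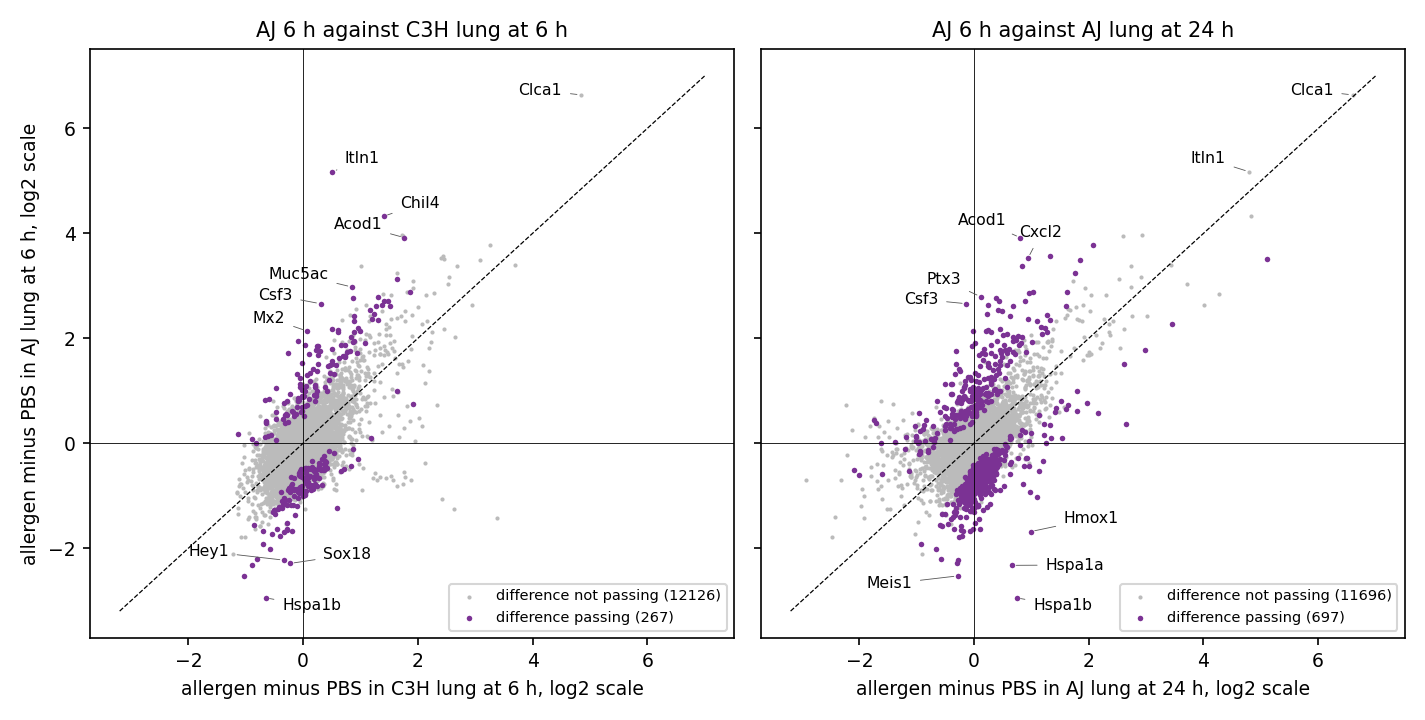
Allergen effect in AJ lung at 6 h (vertical axes, log2 scale) against the effect in C3H lung at 6 h (left) and in AJ lung at 24 h (right), 1 point a gene; purple points passed the test of the difference and the dashed line marks equal effects. Itln1 lies far above the line on the left and near it on the right, and Hspa1b lies below the line in both panels.

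Against AJ at 24 h, which uses other allergen and PBS arrays, the difference of effects passed in 697 genes (5.62%). It was positive in 260 of them and negative in 437. Of the genes that rose at 6 h 227 passed for it, and of those that fell 370. Across genes the effects had a Pearson r of 0.545 and a Spearman rho of 0.349. Genes that rose at both times numbered 343, which is 39.4% of the 6 h rises and 60.7% of the 565 at 24 h, and those that fell at both numbered 135, or 9.08% and 33.3% of the 406 at 24 h.

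The time difference passed in 4 of 14 genes of granulocyte factors and neutrophil-attracting chemokines, 9 of 47 other chemokines, 7 of 45 other interleukin genes, 6 of 31 sensors and 7 of 29 neutrophil genes. Acod1 had an effect of 0.81 ± 0.32 at 24 h and a difference of 3.11 ± 0.45 (adjusted p = 1.2e-05), Ptx3 an effect of 0.12 ± 0.16 and a difference of 2.67 ± 0.22, and Cxcl2 an effect of 0.94 ± 0.25 and a difference of 2.59 ± 0.35. Csf3, Cxcl10, Zc3h12a, Il6 and the ubiquitin ligase Rnf19b differed by 2.79, 2.54, 2.40, 2.39 and 2.27. Of 25 NF-kB genes 13 passed for the difference, and 8 rose at 24 h against 19 at 6 h. For the leading mucus genes the difference between times did not pass: it was 0.04 ± 0.78 for Clca1, 0.38 ± 0.37 for Itln1 and 0.24 ± 0.45 for Muc5ac, and 0 of 18 secreted products passed. S100a8 and S100a9 had effects of 2.92 ± 0.46 and 2.60 ± 0.50 at 24 h, and their differences of 1.05 ± 0.65 and 1.34 ± 0.70 did not pass, while Ngp and Camp had effects of 0.29 ± 0.22 and 0.08 ± 0.23 and differences that passed (adjusted p = 0.000113 and 0.00195). Rnase2a was the reverse case, with the larger effect at 24 h, 5.11 ± 0.30, and a difference of -1.59 ± 0.42 (adjusted p = 0.0162).

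Several of the genes with large falls at 6 h did not pass as lower at 24 h. Hspa1b rose by 0.74 ± 0.23 at 24 h (adjusted p = 0.0424), so that its difference was -3.69 ± 0.33 (adjusted p = 1.53e-09), and Hmox1 rose by 0.99 ± 0.25 at 24 h (adjusted p = 0.00892), with a difference of -2.67 ± 0.36. Meis1, Sox18, Hey1 and Sox17 had effects between -0.31 and -0.07 at 24 h, and the differences of all of them passed. Of the 34 endothelial factors 1 fell at 24 h against 14 at 6 h, and 9 passed for the difference. The clock output gene Dbp was lower at both times, with an effect of -2.48 ± 0.21 at 24 h, and its difference of 0.69 ± 0.30 did not pass (adjusted p = 0.197).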

How the data were processed

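Lung RNA of 40 samples, 5 in each of 8 groups, was measured on 1-colour expression arrays. The authors deposited 1 intensity per probe set and array. Every array has a trimmed mean of 150.0 (2% trimmed from each end), and the software is not given in the sources used here. The annotation gave 20380 of 22690 probe sets 1 symbol, 691 several and 1555 none, and 64 were controls. Each of 12393 genes was read from the probe set with the highest mean log2 value over 40 arrays. Columns of values with no sample numbered 0.

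Values were taken as log2(intensity + 16) and fitted with limma 3.58.1 (R 4.3.3) as 8 group means, with 32 residual and 4.62 prior degrees of freedom. P-values were adjusted by Benjamini-Hochberg across the 12393 genes, and 0.05 was the threshold. Differences of allergen effects are contrasts in the same fit. The scripts were tested on simulated data. The number of arrays limits the precision.

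The members and the 49 gene lists (1566 measured genes) were chosen with earlier results of these data known. Some genes stand in more than 1 list, so counts of different lists are not independent. Named were the 20 largest rises and 15 largest falls without overlap, the 5 largest changes of a list, the 8 largest differences of each sign, and list members given by role. Alternatives were quantile or median scaling, pseudocounts of 1 and 64, and leaving out the dimmest 25% of genes. Further ones were the mean of all probe sets, a replicate block, a trended and robust prior, and the 10 arrays alone. Each of these 10 arrays was also left out in turn, but no C3H or 24 h array was. Genes without a probe set of 1 symbol were not analysed here.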

Additional observations from a re-analysis of the deposited data

Results flagged for a closer look

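The allergen effect in AJ at 6 h differed from that in C3H at 6 h, by the contrast between the effects in limma, for the 8 largest differences of each sign among genes that also passed in AJ. The difference, AJ minus C3H on the log2 scale, was 4.66 for Itln1, 2.92 for Chil4, 2.36 for Csf3, 2.15 for Acod1, 2.13 for Muc5ac, 2.07 for Mx2, 2.03 for Kcne4, a potassium channel subunit, and 1.98 for Egr1. It was -2.29 for Hspa1b, -2.06 for Sox18, -1.89 for Hey1, -1.82 for Zbtb16, -1.50 for Meis1, -1.48 for Trmt1l, -1.45 for Hoxb5 and -1.43 for Hspa1a. The difference of Zbtb16, a zinc finger factor induced by glucocorticoids, no longer passed without allergen replicate 2 or 3 or without PBS replicate 2, 3 or 5, with values of -1.80 to -1.73 and adjusted p-values of 0.0543 to 0.0645.

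By the same kind of contrast the effect at 6 h differed from that at 24 h in AJ. The difference, 6 h minus 24 h, was 3.11 for Acod1, 2.79 for Csf3, 2.67 for Ptx3, 2.59 for Cxcl2, 2.54 for Cxcl10, 2.40 for Zc3h12a, 2.39 for Il6 and 2.27 for Rnf19b. It was -3.69 for Hspa1b, -2.99 for Hspa1a, -2.67 for Hmox1, -2.25 for Meis1, -1.99 for Sox18, -1.95 for Hey1, -1.90 for Akr1c14, an aldo-keto reductase, and -1.73 for Hsph1. In the 40 genes given array by array, 1 of 80 groups of 5 held an array that stood apart by Dixon's 95% criterion, which chance exceeds in about 1 of 20 groups: Il13 on allergen replicate 5, at an intensity of 11.7 against 37.6 to 41.0 on the other allergen arrays.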

How the results depend on the processing

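The counts of genes higher, lower, and passing for the strain and the time difference stayed within 1.5 times of 871, 1487, 267 and 697 under every alternative run, apart from 974 genes lower when arrays were centred on their medians. All 974 were among the 1487. Quantile normalization gave 990 and 1158. Leaving out 1 array gave 790 to 853 higher, 1248 to 1400 lower, 210 to 391 for the strain difference and 592 to 825 for the time difference.

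With a replicate block the counts were 887 higher, 1499 lower, 285 and 711. Arrays with the same number in the allergen and PBS groups deviated together at correlations of -0.174 to 0.258, and arrays with different numbers at -0.264 to 0.304. The labels do not say that the numbers pair samples, so they were not taken to do so.

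Of 206 named genes that passed, 186 kept their call in every setting in which they were tested, 20 lost it in at least 1, and 0 changed sign. Without PBS replicate 5 the fall of Akr1c14 no longer passed (-0.82, adjusted p = 0.0677), and that of Zbtb16 did not pass with a pseudocount of 1 or the mean of its probe sets. Leaving out single arrays for the differences, and PBS replicate 2 for the gene lists, was chosen after seeing the data. Changes of genes near background are shrunk by the pseudocount.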
